A study of Rattus norvegicus with 52 samples.

Results

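Cdkn1b encodes p27, a protein that binds cyclin-dependent kinases and holds cells out of the division cycle. Luminal progenitors are cells of the inner layer of the mammary ducts that can divide and give rise to milk-secreting alveolar cells, and part of the luminal layer carries the estrogen, progesterone and prolactin receptors through which ovarian and pituitary hormones reach the gland. These cells from rats that lack p27 were studied here for changes beyond the cell cycle, heat shock and milk protein genes. The libraries were chosen by their labels: cells sorted from 9-week-old ACI rats as Cd24+ Cd29LOW PNA+ (PNA is peanut agglutinin, a lectin that binds cell surface sugars) or as Cd24+ Cd29LOW Cd49b+ (Cd49b is integrin alpha 2). There were 8 such libraries of 52 in the series, 2 of each fraction for each genotype, Cdkn1b-/- and Cdkn1b+/+. The rats were virgin females and littermates of heterozygous crosses. The null rats carried 1 of 2 small coding deletions, em1 (DEL-32) and em4 (DEL-65), and the series states that both lines contributed equally to both genotypes. The alleles were made in Sprague-Dawley zygotes and crossed into ACI, in part for N6 and in part for N1 generations. Cdkn1b-/- rats may therefore also carry Sprague-Dawley sequence beside the gene. Rats of either genotype may carry it elsewhere in the genome, more so after N1 than after N6 generations. The deletion is present in every tissue from conception, the null rats had cataracts from birth, and neither gate excludes cells that also meet the other gate.

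Sequencing depth was 22619330 to 33859550 counted reads per library, and 11725 genes passed the filter on low counts. CPM, the usual per-million unit, is a count relative to the TMM-scaled library total. The targeted gene was checked first: Cdkn1b was at 9.64, 8.27, 11.04 and 6.57 CPM in the 4 Cdkn1b+/+ libraries and at 2.32, 2.19, 1.83 and 2.53 CPM in the 4 Cdkn1b-/- libraries (here and below in the order PNA+ 1, PNA+ 2, Cd49b+ 1, Cd49b+ 2). All null libraries lay below all wild-type libraries, with a log2 fold change of -2.0 ± 0.25 (SE; adjusted p = 0.0147). Transcripts with a small deletion can still give reads, so the remaining level does not measure p27 protein. Luminal markers were abundant in all 8 libraries, with a summed level of 17500 to 37010 CPM over 10 genes, and basal markers summed to 723 to 5929 CPM. In plain CPM, relative to each library's own total without TMM scaling and used here to compare sorted populations, basal markers summed to 592 to 6310 CPM, against 32400 to 51000 CPM in the sorted basal cells. In plain CPM the progenitor label was not borne out by marker level: 9 luminal progenitor markers, Kit, Elf5 and Itga2 (Cd49b) among them, summed to 1530 to 2580 CPM in wild-type PNA+ cells, 1550 to 2640 CPM in wild-type Cd49b+ cells and 2100 to 2980 CPM in wild-type cells sorted as mature luminal. Also in plain CPM, hormone-sensing markers were higher in the wild-type PNA+ cells, 932 to 1090 CPM, than in the wild-type mature luminal cells, 424 to 453 CPM. The cells are therefore called PNA+ and Cd49b+ cells, or luminal progenitors as labelled. The share of reads in milk genes was 10.9% to 20.0% in Cdkn1b-/- and 2.17% to 7.35% in Cdkn1b+/+ libraries, and the share of reads not assigned to a gene was 47.2% to 52.0% against 54.4% to 59.2%. Neither range overlapped, and their part in the results below was not tested.

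Libraries with the same number lay close, whatever the gate, except for null Cd49b+ 2. Over log2 CPM of all tested genes the distance between PNA+ and Cd49b+ libraries of 1 number was 44.8 and 38.4 in Cdkn1b+/+ and 58.3 and 89.0 in Cdkn1b-/-, while PNA+ 1 lay 91.5 from PNA+ 2 in Cdkn1b+/+ and 88.5 in Cdkn1b-/-. The library closest to null Cd49b+ 2 was wild-type Cd49b+ 1, at 87.7. Deviations of same-numbered libraries correlated across genes at r = 0.85 in Cdkn1b+/+ and 0.67 in Cdkn1b-/-. Kit, a receptor tyrosine kinase counted among the progenitor markers, was at 60.5, 273.7, 65.2 and 280.1 CPM in Cdkn1b+/+ and at 264.6, 70.8, 323 and 50.0 CPM in Cdkn1b-/- libraries. It was high in number 2 of the wild type and number 1 of the null, in both fractions. The labels do not say whether a number marks a rat, a pool or a day. So the 4 libraries of a genotype may stand for only 2 independent samples, and the p-values below, which treat them as 4, measure the spread between libraries.

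With the sorted fraction as a term, the quasi-likelihood test of edgeR, adjusted by the Benjamini-Hochberg method, called 263 of 11725 genes (2.24% of those tested), 138 higher (1.18%) and 125 lower (1.07%) in Cdkn1b-/- cells. Of these, 219 changed by more than 1 on the log2 scale. The 263 called genes all had null and wild-type libraries that did not overlap, as did 1642 genes in all (14.0%). When the PNA+ and Cd49b+ libraries of a genotype and number were summed, which left 2 against 2 samples, 0 genes passed (744 were at an unadjusted p under 0.05), and 0 passed a limma fit with an estimated correlation of 0.756 between same-numbered libraries (844 at an unadjusted p under 0.05). DESeq2 on 8 libraries called 1209. Leaving out any of the other 7 libraries left 22 to 56 calls, the fewest without Cdkn1b-/- PNA+ 2, while 847 were called without Cdkn1b-/- Cd49b+ 2, which lay at -11.7 on the first principal component, next to wild-type PNA+ 1 at -11.1, while the other null libraries lay between 36.7 and 65.6. Of the 263 genes, 254 were among the 847 called without null Cd49b+ 2. "Rose", "fell" and "called" below refer to the test on 8 libraries.

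**Figure D1:**
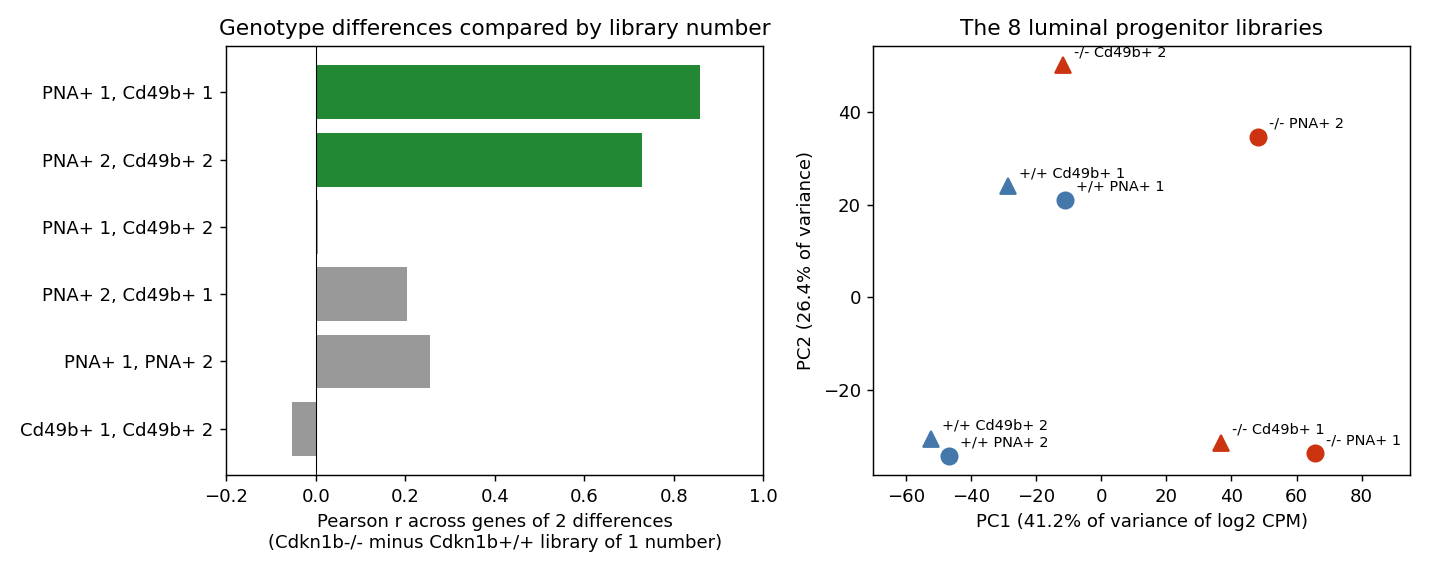
Left: bars give Pearson's r across 11725 genes between 2 genotype differences, each taken as log2 CPM of a Cdkn1b-/- library minus that of the Cdkn1b+/+ library with the same gate and number; same-numbered pairs (green) reach 0.858 and 0.729, and other pairs (grey) lie between -0.0539 and 0.256. A number does not link the genotypes, so the choice of wild-type library is arbitrary. Right: the 8 libraries on the first 2 principal components of log2 CPM (blue Cdkn1b+/+, red Cdkn1b-/-; circles PNA+, triangles Cd49b+), where libraries of 1 genotype and number lie together except the null Cd49b+ 2 library.

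Genes that rose are described above a mean log2 CPM of 2, without cell cycle, heat shock and milk genes and without symbols that start with LOC. The limit on level leaves out genes of larger fold change but low level, such as Alox12e and Mlana. Pigr, the receptor that carries immunoglobulin A across an epithelium, was at 8.23, 7.83, 9.09 and 8.31 CPM in Cdkn1b+/+ and at 139.5, 232, 117 and 98.1 CPM in Cdkn1b-/- libraries. Wild-type libraries were nearly alike and every null library was far above them. Its log2 fold change was 4.08 ± 0.27 (SE; adjusted p = 0.00188). Hephl1, a copper-dependent ferroxidase of the hephaestin family, was at 6.86, 4.25, 6.60 and 4.03 CPM in wild-type and 99.6, 195.8, 113 and 114 CPM in null libraries. The lowest null library was far above the highest wild-type one, with a log2 fold change of 4.58 ± 0.32 (adjusted p = 0.00188). Sult5a1, a sulfotransferase, was at 6.24, 9.93, 11.01 and 12.7 CPM in wild-type and 129.8, 230.4, 114 and 169 CPM in null libraries, a log2 fold change of 4.02 ± 0.33 (adjusted p = 0.00332). It too was higher in every null library.

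Other genes of the higher set were close to absent in the wild type. Klk1c9, a kallikrein-family serine protease, was at 0 to 0.192 CPM in wild-type and 2.68 to 68.2 CPM in null libraries, and its level in null libraries followed the number, with 4.07 and 2.68 CPM in number 1 and 68.2 and 54.3 CPM in number 2. Aoc1, diamine oxidase, which degrades histamine, was at 0 to 0.31 CPM against 6.00 to 25.2 CPM. Astn2, an astrotactin known from migrating neurons, was at 0.093 to 0.377 CPM against 10.96 to 31.7 CPM. Fitted fold changes for these 3 genes rest on few wild-type reads and depend on the prior count, so the levels are the better description. Ctxn3 (0.155 to 2.47 against 11.4 to 126 CPM), the serine protease gene Prss32 (0.439 to 3.45 against 15.2 to 45.7 CPM) and Slit1, a ligand of Robo guidance receptors (1.92 to 6.60 against 44.3 to 60.9 CPM), also rose without overlap. The complement gene C3 was at 34.6 to 95.6 CPM in wild-type and 400.1 to 1603 CPM in null libraries. Gsta1, a glutathione transferase, was at 5.13 to 27.8 against 107 to 342 CPM, and Aldh1a7, an aldehyde dehydrogenase, at 1.13 to 3.44 against 19.1 to 38.8 CPM. Klk1c9, Aldh1a7 and Gsta1 belong to families of near-identical copies, so reads may have been shared or lost between copies in the authors' counting.

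Genes that fell were chosen in the same way. Gp2, a membrane glycoprotein that binds bacterial fimbriae, was at 93.0, 194.5, 88.4 and 243 CPM in Cdkn1b+/+ and 5.64, 4.34, 9.16 and 4.63 CPM in Cdkn1b-/- libraries. No null library came near a wild-type one, and the log2 fold change was -4.72 ± 0.45 (SE; adjusted p = 0.00613). Tmem150c was at 51.5, 70.2, 46.0 and 61.6 CPM in wild-type and 9.28, 6.29, 7.67 and 8.00 CPM in null libraries, a log2 fold change of -2.87 ± 0.20 (adjusted p = 0.00188). Its spread within each genotype was small. Pcsk2, a convertase that cleaves prohormones, was at 8.23, 75.4, 5.79 and 62.6 CPM in wild-type libraries, so it varied with the number, and at 0.176 to 0.712 CPM in null libraries. Serpinb9, an inhibitor of granzyme B, was at 142 to 317 against 23.5 to 54.0 CPM, and Plg, plasminogen, at 24.3 to 78.6 against 7.05 to 13.7 CPM. Mx2, an interferon-induced GTPase, was at 17.7 to 40.0 against 4.81 to 6.11 CPM. Bche (butyrylcholinesterase), Rad54b (a helicase of recombination repair), Ptpru (a receptor tyrosine phosphatase), Ly6g6e, Plppr4 and Kctd8 (a GABA-B receptor auxiliary subunit) fell with log2 fold changes between -3.51 and -2.33, each without overlap of the libraries.

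**Figure D2:**
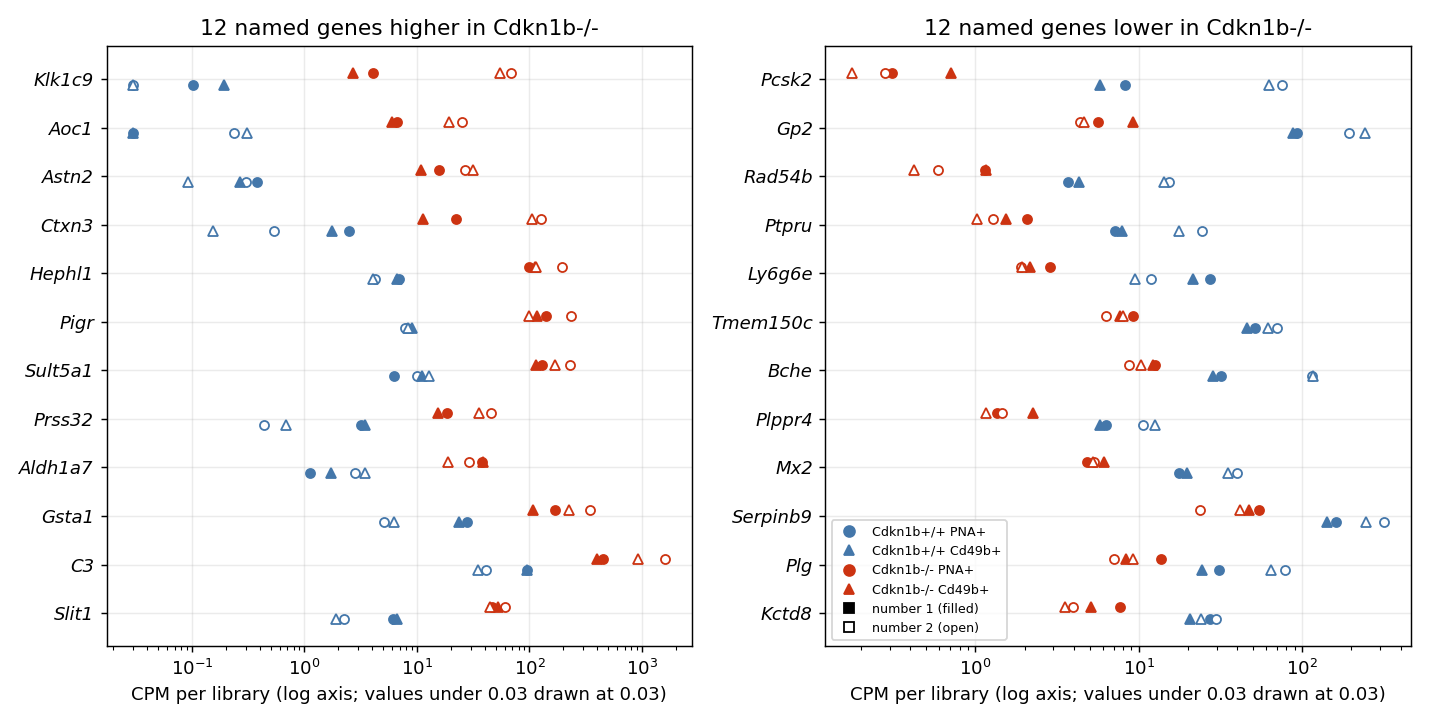
CPM in each of the 8 libraries (log axis) for the 12 genes of each direction with the largest log2 fold change among called, non-overlapping genes above a mean log2 CPM of 2. Cell cycle, heat shock and milk genes and LOC, RGD, Mir and Snor symbols were left out. Blue Cdkn1b+/+, red Cdkn1b-/-, circles PNA+, triangles Cd49b+, filled number 1, open number 2, and values under 0.03 are drawn at 0.03. Red and blue points do not overlap for any of the 24 genes, and open and filled points of 1 colour separate for genes such as Klk1c9 and Pcsk2.

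Genes of the hormone-sensing luminal cell lay lower in Cdkn1b-/- cells. Of 10 measured members, 4 fell (40.0%, beside 1.07% of all genes) and 0 rose, and the median log2 fold change was -0.90 against -0.05 over all genes tested. Cited1, a transcriptional coregulator of estrogen receptor-positive luminal cells, was at 149, 136, 121 and 95.4 CPM in Cdkn1b+/+ and 30.4, 24.2, 19.6 and 25.6 CPM in Cdkn1b-/- libraries. Wild-type and null libraries were well apart in both fractions, with a log2 fold change of -2.32 ± 0.17 (SE; adjusted p = 0.00188). Pgr, the progesterone receptor gene, was at 68.9, 62.0, 55.9 and 44.6 against 30.9, 28.6, 27.6 and 22.1 CPM (log2 fold change -1.08 ± 0.15, adjusted p = 0.0172). Prlr, the prolactin receptor gene, was at 100.8 to 138 against 39.9 to 59.5 CPM (-1.25 ± 0.17 on the log2 scale, adjusted p = 0.0172), and Foxa1, a factor that opens chromatin for the estrogen receptor, at 45.1 to 86.7 against 22.5 to 31.1 CPM (-1.39 ± 0.21, adjusted p = 0.0228). Esr1, the estrogen receptor gene itself, was at 15.3 to 22.1 against 6.69 to 11.6 CPM and missed the threshold (adjusted p = 0.0719). With TMM scaling the summed level of the measured markers was 477 to 485 CPM in null and 885 to 984 CPM in wild-type PNA+ cells, and 382 to 453 against 656 to 834 CPM in Cd49b+ cells. In bulk samples fewer hormone-sensing cells in the sort and less RNA of these genes per cell cannot be told apart. Without 1 library, 1 to 5 members fell, and 5 fell without null Cd49b+ 2.

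Further along the prolactin pathway, 11 genes other than Prlr did not pass, with Stat5a, the factor activated by the receptor, at 74.8 to 104 CPM in wild-type and 103 to 159 CPM in null libraries. Cish, a feedback inhibitor in that pathway, was at 166 to 199 against 174 to 323 CPM. Progenitor markers did not pass in any of 9 genes, the median log2 fold change being 0.40.

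Mucosal defence genes moved in both directions. Of 21 measured members 4 rose and 2 fell (28.6%, beside 2.24% of all genes), and the median log2 fold change was 1.02. Without 1 library 2 to 9 were called, and without null Cd49b+ 2 6 rose and 3 fell. Besides Pigr and C3, Lpo, a milk and airway peroxidase, was at 1.11 to 7.72 CPM in wild-type and 24.0 to 55.6 CPM in null libraries, and Tlr2, a receptor for bacterial lipoproteins, at 14.7 to 18.3 against 31.3 to 53.9 CPM. Gp2 fell as above, and Wfdc2, a small secreted protein of mucosal surfaces, was at 207 to 375 against 108 to 171 CPM. Other members varied with library number. Lcn2, lipocalin 2, which binds bacterial siderophores, was at 22.9, 856, 24.2 and 848 CPM in wild-type and 3808, 1156, 3106 and 501 CPM in null libraries, with an adjusted p of 0.37.

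Few interferon-stimulated genes passed. Of 31 measured members 3 fell (9.68%, beside 1.07% of all genes) and 0 rose, 24 had a negative log2 fold change, and the median was -0.66, with -0.84 in PNA+ and -0.47 in Cd49b+ cells. Their summed level overlapped between genotypes, at 1588 to 1898 CPM in wild-type and 1324 to 1659 CPM in null libraries. Endothelial and fibroblast markers had medians of -0.72 and -1.34 in the same libraries, and their part in the interferon values was not tested. Without 1 library 0 to 6 fell, and 6 fell without null Cd49b+ 2. Besides Mx2, Bst2, which tethers enveloped virions to the cell, was at 42.3, 38.5, 44.2 and 27.7 CPM in Cdkn1b+/+ and 16.1, 15.8, 15.7 and 21.2 CPM in Cdkn1b-/- libraries (log2 fold change -1.15 ± 0.20, adjusted p = 0.0348). Isg15, a ubiquitin-like modifier, was at 20.4 to 23.3 against 8.89 to 14.8 CPM (-1.03 ± 0.20 on the log2 scale, adjusted p = 0.0445). Both genes were highest among null libraries in Cd49b+ 2. Class II antigen presentation genes did not pass in any of 9 measured.

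Promoters are shown for genes that rose or fell and hold a short motif of a pathway discussed here, to let a reader see the letters; they come from RefSeq (GRCr8) and cover 250 bases before and 50 bases after the start of the gene, and capitals mark the motif. Promoter sequences matched 8951 of the 11725 tested genes by symbol. Both strands were searched. Bst2 (chr16:18254918-18255217, minus strand) and Serpinb9 (chr17:31640767-31641066, minus strand) hold GAAA, any 2 bases and GAAA again, the core that interferon regulatory factors bind (the interferon motif), in 2 overlapping copies in Bst2 and its reverse complement in Serpinb9. Pigr (chr13:44850932-44851231, plus strand) holds ACANNNTGT, an inverted repeat that progesterone and glucocorticoid receptors share, and Gsta1 (chr9:31216483-31216782, minus strand) holds TTCNNNGAA, the core bound by Stat factors.
Bst2: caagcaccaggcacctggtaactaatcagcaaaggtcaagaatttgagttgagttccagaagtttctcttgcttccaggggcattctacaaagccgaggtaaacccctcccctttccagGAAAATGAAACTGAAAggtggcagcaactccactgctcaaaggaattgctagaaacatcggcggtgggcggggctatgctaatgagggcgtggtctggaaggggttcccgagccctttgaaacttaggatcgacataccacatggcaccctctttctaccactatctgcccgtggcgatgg
Serpinb9: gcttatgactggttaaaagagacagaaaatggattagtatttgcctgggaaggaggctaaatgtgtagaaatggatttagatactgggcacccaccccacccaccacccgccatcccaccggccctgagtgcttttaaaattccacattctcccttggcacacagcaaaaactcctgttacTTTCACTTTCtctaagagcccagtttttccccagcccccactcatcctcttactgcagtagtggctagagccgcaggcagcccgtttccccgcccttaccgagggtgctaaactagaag
Pigr: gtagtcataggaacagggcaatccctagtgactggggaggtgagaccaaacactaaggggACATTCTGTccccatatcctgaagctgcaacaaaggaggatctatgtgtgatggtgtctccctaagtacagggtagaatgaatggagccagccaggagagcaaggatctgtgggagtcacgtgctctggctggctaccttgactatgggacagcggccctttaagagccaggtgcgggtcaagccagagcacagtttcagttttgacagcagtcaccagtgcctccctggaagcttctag
Gsta1: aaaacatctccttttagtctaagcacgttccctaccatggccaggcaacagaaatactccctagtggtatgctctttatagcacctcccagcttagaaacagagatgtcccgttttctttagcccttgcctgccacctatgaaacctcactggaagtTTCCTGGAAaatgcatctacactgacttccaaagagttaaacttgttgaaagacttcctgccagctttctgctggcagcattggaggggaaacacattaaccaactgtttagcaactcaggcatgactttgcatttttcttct

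The interferon motif was in 16 of 22 promoters of the interferon list (72.7%) and in 2.87% of the promoters of tested genes, and it was in 2 of 106 promoters of genes that rose and 2 of 84 of genes that fell. TTCNNNGAA was in 6.65% of all tested promoters, 6.6% of those that rose and 8.33% of those that fell. ACANNNTGT was in 3.85% of all tested promoters, in 9 of 106 (8.49%) that rose and in 5 of 84 (5.95%) that fell. A match is a description of the letters and says nothing of binding, and matches of the interferon and Stat motifs can overlap, since both hold GAA.

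In the lists of transport, tight junction and lipid synthesis genes the called members rose, while called genes outside these hand-made lists also fell, such as Mpdz, a tight junction scaffold (23.0 to 34.3 CPM in wild-type, 7.35 to 14.6 CPM in null libraries), and Slc7a2, an amino acid transporter (6.93 to 15.8 against 1.63 to 3.09 CPM), both chosen after their values were seen. Among 30 listed transport genes 3 rose (10.0%, beside 1.18% of all genes): Aqp3, a water and glycerol channel, at 7.07 to 17.4 CPM in wild-type and 39.6 to 134 CPM in null libraries, Slc28a3, a nucleoside transporter, at 9.22 to 19.1 against 37.8 to 78.3 CPM, and Cftr, the chloride channel, at under 0.22 against 0.597 to 0.78 CPM. The first of these was higher in number 1 of both genotypes. Cldn10 and Cldn8, claudins of the tight junction, rose among 21 listed genes (9.52%), at 11.8 to 15.7 against 29.5 to 36.9 CPM and at 70.9 to 77.8 against 96.6 to 170 CPM. Acss2, which makes acetyl-CoA from acetate, and Me1, which makes NADPH, rose among 25 lipid synthesis genes (8.0%), at 8.97 to 14.2 against 21.4 to 66.1 CPM and at 144 to 228 against 286 to 538 CPM. Cholesterol synthesis genes had 0 calls of 21, the median log2 fold change being -0.23. Of the 19 retinoid genes 2 rose, Aldh1a7 and Aldh1a1, which oxidises retinal to retinoic acid (0.338 to 0.652 against 4.63 to 8.41 CPM), while the median of the list was -0.06. Gsta1 was the single call among 25 listed genes of the Nrf2 antioxidant programme, and Il36b among 35 listed cytokine and chemokine genes, at 0.124 CPM or less in wild-type libraries. Without null Cd49b+ 2 these lists held 3 higher and 1 lower, and 4 higher and 1 lower. Il7, a lymphocyte growth factor that was not in the list and was chosen after its values were seen, was at 0.617 to 1.42 CPM in wild-type and 4.11 to 8.58 CPM in null libraries.

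Growth pathway lists held few calls, 3.33% of ErbB and Fgf, 3.45% of Wnt and 3.03% of Tgf-beta and Bmp genes, near the 2.24% of all genes, so the genes below are described singly. Without null Cd49b+ 2 the calls were 1 higher and 3 lower in the first list, 1 higher and 4 lower in the second, 1 higher and 5 lower in the third, and 2 Notch genes fell. Fgfr2, the receptor through which fibroblast growth factors reach mammary epithelium, was at 119.7, 146, 133 and 152 CPM in Cdkn1b+/+ and 24.0, 22.2, 27.2 and 56.3 CPM in Cdkn1b-/- libraries. The null Cd49b+ 2 library was the highest of the nulls and still below every wild-type library. Its log2 fold change was -2.15 ± 0.27 (SE; adjusted p = 0.0151), and it was the only call of 30 ErbB and Fgf pathway genes. Wnt5a, a non-canonical Wnt ligand, was the only call of 29 Wnt genes (8.20 to 13.9 against 2.12 to 4.07 CPM), Gli3, a hedgehog effector, the only call of 8 hedgehog genes (10.9 to 14.4 against 3.80 to 6.91 CPM), and Bmpr1b, a bone morphogenetic protein receptor, the only call of 33 Tgf-beta and Bmp genes (9.95 to 12.04 against 2.93 to 4.69 CPM). Of 20 Notch genes 0 were called, and of 23 immediate early genes 1 fell, Klf2, a Krüppel-like transcription factor, at 333 to 416 against 135 to 238 CPM. Ddit3 was the only call of 33 genes of the secretory pathway and its stress response, at 30.9 to 42.6 against 13.7 to 21.7 CPM. Ribosomal protein genes had 0 calls of 75 but 72 negative log2 fold changes, with a median of -0.32, and respiratory chain genes had 0 calls of 73 and a median of -0.0033. Of the 4 groups set aside, 3 of 48 G2 and M phase genes (6.25%) and 2 of 10 milk genes (20%) rose, beside 1.18% of all genes. Of 37 S phase and 19 heat shock genes 0 were called. Log2 fold changes were positive for 45 G2 and M phase, 10 milk and 26 S phase genes and negative for 18 heat shock genes. The medians of these groups were 1.08, 1.12, 0.22 and -0.69. The other lists, 9 keratin genes, 29 matrix and adhesion genes and 19 Cdk inhibitor, cyclin, kinase, Rb and E2f genes, held 1 call, which was Cdkn1b.

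**Figure D3:**
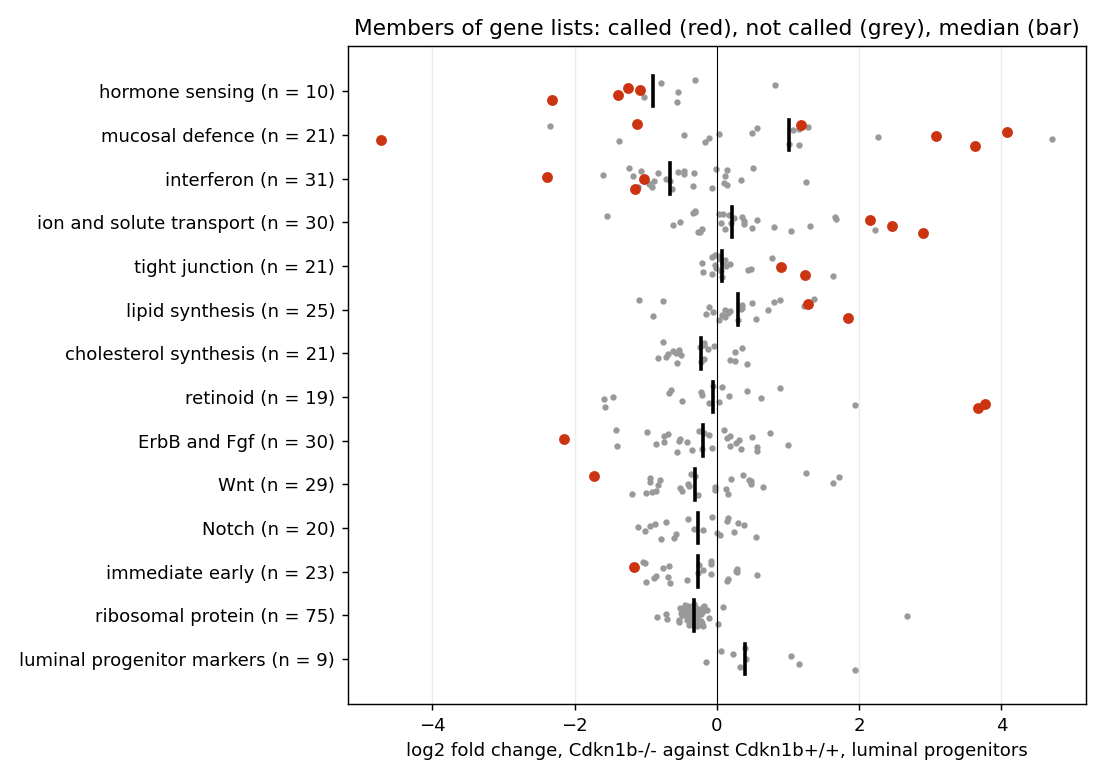
Log2 fold change in luminal progenitors (Cdkn1b-/- against Cdkn1b+/+, 8 libraries) of each measured member of 14 gene lists; red points were called, grey points were not and black bars are list medians. Hormone-sensing and interferon points lie mostly left of 0, with medians of -0.90 and -0.66, mucosal defence points lie on both sides, and ribosomal protein points form a narrow cloud around -0.32.

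PNA+ and Cd49b+ cells mostly shared the direction of change. Within PNA+ cells 1 gene was called, Pigr (0.00853%), a call that was lost without any 1 library other than null PNA+ 1, and 1393 genes were under an unadjusted p of 0.05 (11.9%), while within Cd49b+ cells 0 were called and 618 were under it (5.27%). DESeq2 called 375 in PNA+ and 101 in Cd49b+ cells. Of the 1393 genes, 1363 (97.8%) had the same sign in Cd49b+ cells, and of the 618 genes 614 (99.4%) had the same sign in PNA+ cells, beside 81.8% of all genes. There were 516 genes under the unadjusted threshold in both fractions, and 516 of these had 1 sign. The difference between the fractions (Cd49b+ minus PNA+) was called for 0 genes by edgeR and by DESeq2. In edgeR 41 genes had an unadjusted p under 0.05 (0.350%), fewer than chance alone gives at that threshold. This fit had no term for library number, although same-numbered libraries deviated together. With a block for number within genotype, 640 genes had an unadjusted p under 0.05 and 0 were called. The 138 genes that rose had a median log2 fold change of 1.73 in PNA+ and 1.61 in Cd49b+ cells, and the 125 that fell -1.76 and -1.42. The change was larger in PNA+ cells for 216 of the 263. The median difference for a gene, 0.283, was smaller than its median standard error of 0.52 in the fit without number. For most genes a difference of this size was thus not detectable in that fit. Across all genes the log2 fold changes of the fractions correlated at r = 0.779 (Spearman 0.761), a description across genes, which are not independent. With each null library set against the wild-type library of its number, that agreement followed library number. The genotype difference in PNA+ 1 correlated with that in Cd49b+ 1 at 0.858 and PNA+ 2 with Cd49b+ 2 at 0.729. PNA+ 1 correlated with Cd49b+ 2 at 0.00495, PNA+ 2 with Cd49b+ 1 at 0.203 and the 2 numbers within PNA+ cells at 0.256. A number does not link the genotypes, so this pairing is arbitrary. The r values depend in part on it, and the crossed pairing was not run.

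**Figure D4:**
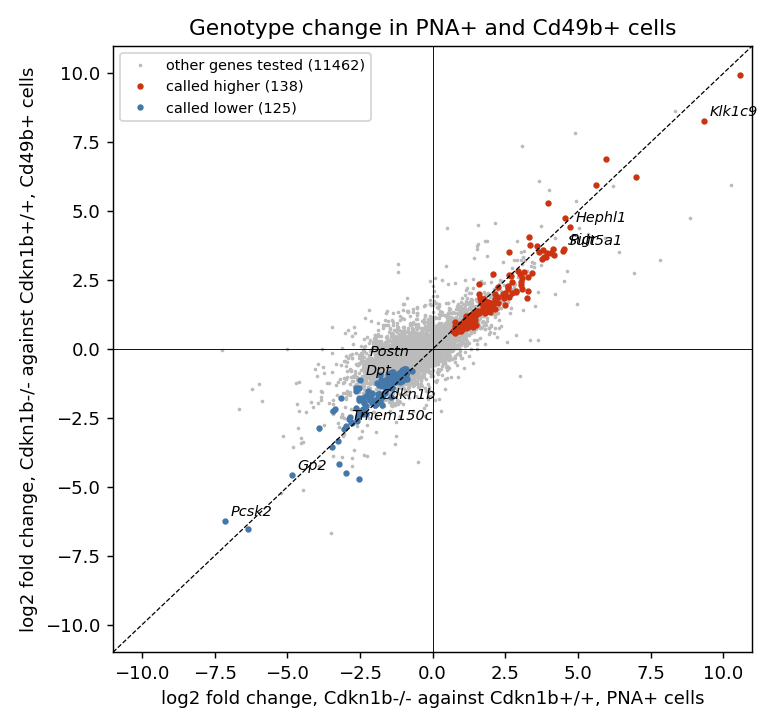
Log2 fold change (Cdkn1b-/- against Cdkn1b+/+) in PNA+ cells (x) and in Cd49b+ cells (y) for each of the 11725 genes tested, with the 138 genes called higher in red, the 125 called lower in blue and the line of equal change dashed. Called genes lie along the line, mostly on its PNA+ side, and Postn and Dpt lie above it, with a larger decrease in PNA+ cells.

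Genes under an unadjusted p of 0.05 for the difference between fractions were mostly less reduced in Cd49b+ cells, 38 against 3. Among genes above a mean log2 CPM of 2, those with the lowest p were Postn (periostin, a matrix protein of stroma), Gpm6b, Plagl1, Ksr1 and Dpt (dermatopontin, a dermal and stromal matrix protein), none with an adjusted p below 1. Postn was at 32.3 and 35.3 CPM in wild-type and 7.96 and 5.28 CPM in null PNA+ libraries, and at 46.6 and 62.9 against 29.5 and 50.8 CPM in Cd49b+ libraries. It fell by 2.35 on the log2 scale in PNA+ cells and by 0.45 in Cd49b+ cells, a difference of 1.90 ± 0.50 (SE, adjusted p = 1). In the other direction the 3 genes under 0.05 were below that level, and above it the lowest p was 0.0607, for Pigr, followed by Nsun6, Rplp1, Stk36 and Iffo1. Pigr had log2 fold changes of 4.53 in PNA+ and 3.63 in Cd49b+ cells (adjusted p of the difference 1). Markers of stromal and basal cells were also lower in null PNA+ cells. Fibroblast markers, 9 genes that passed the filter (Col1a2 was at 0 throughout), summed to 623 to 1624 CPM in wild-type and 220 to 239 CPM in null PNA+ cells. In Cd49b+ cells they summed to 749 to 1562 against 509 to 1205 CPM. Endothelial markers, 11 genes, summed to 756 to 1502 against 427 to 591 CPM in PNA+ cells and 1086 to 1624 against 649 to 1931 CPM in Cd49b+ cells, although Cd31 was in the stain. Basal markers, 13 genes, summed to 1293 to 1911 against 723 to 974 CPM in PNA+ cells, and to 2502 to 2939 against 1228 to 5929 CPM in Cd49b+ cells, the highest value being null Cd49b+ 2. Lymphoid markers stayed below 59.1 CPM and adipocyte markers lay between 226 and 547 CPM. Myeloid markers, 11 genes that passed the filter, summed the other way, to 264 to 720 CPM in wild-type and 806 to 1641 CPM in null PNA+ cells. In Cd49b+ cells their sums overlapped, at 255 to 726 against 485 to 1369 CPM. Of 11 myeloid genes tested, 4 had a positive and 7 a negative log2 fold change. None of these marker lists had a called gene with 8 libraries, while 5 fibroblast and 3 endothelial genes fell without null Cd49b+ 2, and their part in the difference was not tested. In addition to the genes above, the lowest p within a fraction, above the same level, belonged to Alas1, the first enzyme of heme synthesis (43.2 to 44.3 CPM in wild-type, 106 to 141 CPM in null libraries), Liph, a lipase that makes lysophosphatidic acid (1.65 to 2.30 against 9.65 to 12.9 CPM), and, among genes that fell, Trpm3, a cation channel (23.2 to 31.1 against 5.77 to 7.57 CPM), Clca2 (83.8 to 157 against 21.4 to 31.7 CPM) and LOC310926 (57.9 to 69.5 against 12.4 to 19.0 CPM). These moved alike in both fractions.

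Mature luminal cells of 9 weeks (Cd49b- PNA-, 4 libraries) were compared next. In these 9 genes were called (0.0703%) and 770 were under an unadjusted p of 0.05 (6.01%). DESeq2 called 110, while edgeR called 0 without either wild-type and 4 without either null library. The mature luminal cells are separate libraries, and whether they share rats with the progenitors is not given. Of the 263 progenitor genes 256 (97.3%) had the same sign there, beside 73.1% of all genes. Of the 263, 8 were called, among them Hephl1 (log2 fold change 4.63, adjusted p = 0.00839), Pigr (3.13, adjusted p = 0.0176) and Sult5a1 (3.52, adjusted p = 0.0176), and 172 were under an unadjusted p of 0.05 with the same sign and 0 with the opposite one. The medians were 1.34 for genes that rose and -1.07 for genes that fell in progenitors. Among hormone-sensing genes Pgr had a log2 fold change of 0.25, Prlr of 0.0046, Foxa1 of -0.53 and Cited1 of -1.79 in mature luminal cells. None of these was called, though Cited1 had an unadjusted p of 0.0208 in edgeR. The median of the 10 listed genes was 0.063 there, and the difference from progenitors was not tested. Gp2 (-4.44) and Mx2 (-2.47) were close to their values in progenitors. In basal cells 83.3% of the 263 genes had the same sign, beside 61.0% of all genes.

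Luminal cells of younger rats, sorted as Cd24+ Cd29LOW without the progenitor gates, gave shares near those of all genes. Cdkn1b itself was not called in them. Nor did edgeR call it in 9-week mature luminal (log2 fold change -1.37, adjusted p = 0.498) or basal cells (-1.59, adjusted p = 0.444). In the younger luminal cells its log2 fold change was -0.48 ± 0.46 (SE) at 4 weeks and -0.62 ± 0.94 at 6 weeks. It was -2.0 in progenitors, and the cause was not tested. At 4 weeks (3 libraries per genotype) 0 genes were called by edgeR or DESeq2, with 671 under an unadjusted p of 0.05 (6.19%). Of 233 progenitor genes measured there, 52.8% had the same sign, beside 54.6% of all genes, and medians were -0.04 for the genes that rose and -0.10 for those that fell. Unadjusted p-values were under 0.05 for 16 of them, 10 with the same sign. Gp2 had a 4-week log2 fold change of -0.14, Pigr of -0.68, C3 of -0.47 and Cited1 of 1.26. At 6 weeks (2 libraries per genotype) 0 genes were called by edgeR and 562 by DESeq2, and 1214 had an unadjusted p under 0.05 in edgeR (11.7%). The edgeR count was not stable when 1 library was left out. Of 214 progenitor genes measured there, 53.3% had the same sign, beside 50.1% of all genes. Under an unadjusted p of 0.05, 8 of them had the same sign and 17 the opposite one. The 6-week null libraries held stromal markers, with endothelial sums in plain CPM of 439 to 1850 CPM against 53.6 to 84.1 CPM in the wild type and fibroblast sums of 134 to 3420 against 32.5 to 39.1 CPM, and their part in those values was not tested. Age and gate differ together between these libraries and the 9-week progenitors, so the 2 cannot be told apart.

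**Figure D5:**
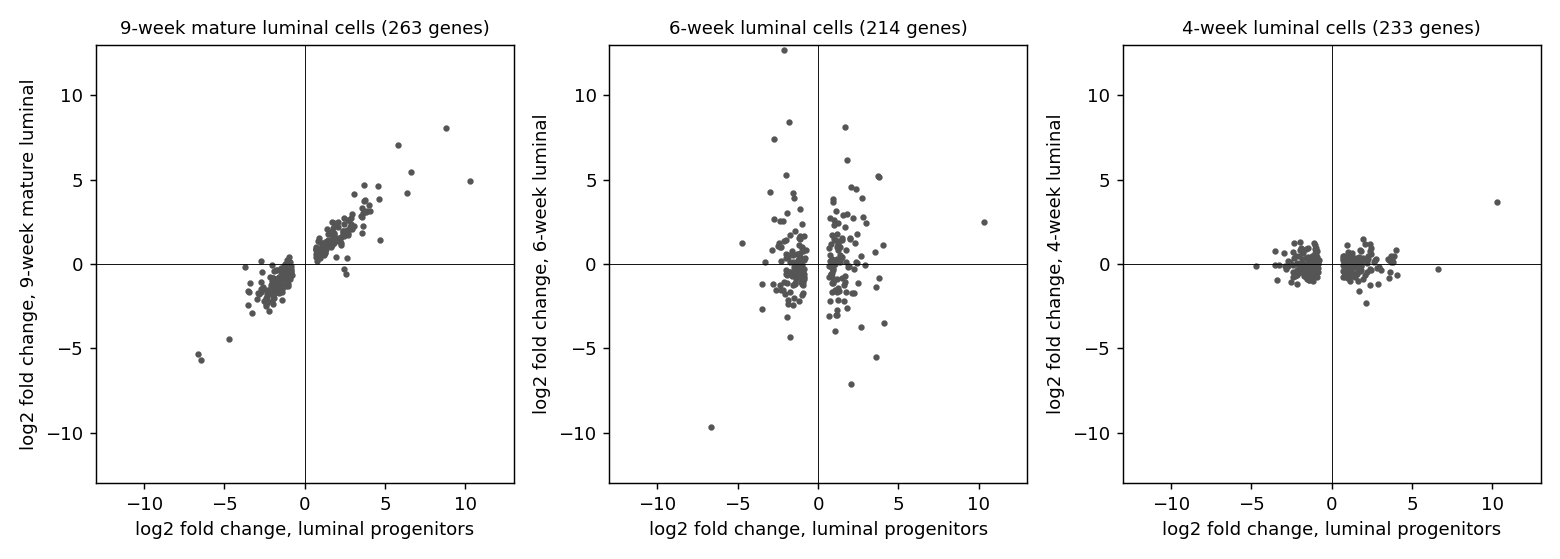
Log2 fold change (Cdkn1b-/- against Cdkn1b+/+) of the called genes in luminal progenitors (x) against that in 9-week mature luminal cells (263 genes), 6-week luminal cells (214 genes) and 4-week luminal cells (233 genes) (y). Points follow the diagonal in mature luminal cells, scatter widely at 6 weeks and lie near 0 at 4 weeks.

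Genes that neighbour Cdkn1b were counted because the alleles were made in another strain. Of the 99 tested genes nearest to Cdkn1b on its chromosome in RefSeq's gene order, up to 50 on each side, 4 were called (4.04%, beside 2.24% of all genes), and all 4 fell: Dusp16, a MAP kinase phosphatase, Ptpro, a receptor tyrosine phosphatase, Etnk1, an ethanolamine kinase, and Bicd1, a dynein adaptor. Dusp16 lies 3 tested genes from Cdkn1b and was at 45.1, 57.1, 47.2 and 55.4 CPM in Cdkn1b+/+ and 22.9, 20.4, 28.8 and 19.7 CPM in Cdkn1b-/- libraries. All null libraries were below the wild type, with a log2 fold change of -1.16 ± 0.17 (SE; adjusted p = 0.0228). Its log2 fold change was -0.83 in mature luminal, -1.03 in basal and -1.03 in 4-week luminal cells. The median over the 99 genes was -0.05, the same as over all genes. Loss of p27 and Sprague-Dawley sequence near the gene cannot be told apart for these genes. For genes elsewhere in the genome the part of Sprague-Dawley sequence was not tested.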

How the data were processed

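RNA was extracted from sorted cells, amplified with a low-input SMARTer v4 kit from under 10 ng and sequenced as single-end 75-base reads, a kit that does not mark strand, so reads of overlapping genes cannot be separated. Per the labels and the study's methods, the authors aligned reads with STAR 2.5.1b to rn6 and deposited raw read counts per gene from HTSeq on refGene models, 1 table per library. Rows of unassigned reads (47.2% to 59.2% of reads) were left out of totals. Counts were tested here with edgeR 4.0.16 in R 4.3.3 (TMM, filterByExpr by group, robust quasi-likelihood fit, Benjamini-Hochberg adjustment, threshold 0.05): genotype with fraction as a term over 8 libraries, and 4 groups for the fractions and their difference. Mature luminal and basal values come from 1 fit over 16 libraries, younger luminal values from fits per age. DESeq2 1.42.0 and limma 3.58.1 served as alternatives. CPM use TMM-scaled totals, and log2 CPM a prior count of 2. Depth was 22619330 to 33859550 counted reads per library. Numbers 1 and 2 of the same genotype and fraction did not agree within sampling noise, and other pairs of libraries were not checked for this.

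Named genes were Cdkn1b, up to 12 per direction with the largest change among called, non-overlapping genes above a mean log2 CPM of 2 (cell cycle, heat shock, milk and LOC, RGD, Mir and Snor symbols left out), up to 4 members per list by p, and up to 5 per direction by p for each fraction and for their difference. Kit, Lcn2, Esr1, Il7, Mpdz, Slc7a2, Alox12e, Mlana, Stat5a, Cish, the neighbours of Cdkn1b and the promoters shown were chosen after their values were seen. The libraries, lists and tests were chosen with earlier results of these data known. Same-numbered libraries of different genotypes deviated at r = -0.0869 to -0.219, so numbers were not taken as pairs. Chromatin, estrogen-treated and their control, and younger basal samples were not used here.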

Additional observations from a re-analysis of the deposited data

Results flagged for a closer look

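In each genotype the 4 luminal progenitor libraries were searched for a single library far from the others, over 25 named genes and the summed CPM of 36 lists (122 groups of 4), and chance flags about 1 in 20 such groups. There were 2 such values. Interferon-stimulated genes summed to 1659 CPM in Cdkn1b-/- Cd49b+ 2 and to 1324 to 1363 CPM in the other null libraries, a gap of 0.871 of the range on the log2 scale. Matrix and adhesion genes summed to 3444 CPM in Cdkn1b-/- PNA+ 2 and to 5517 to 5934 CPM in the other null libraries, a gap of 0.866 of the range on that scale.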

How the results depend on the processing

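The 263 calls in luminal progenitors became 275 with RLE scaling (164 higher, 111 lower), 290 with no filter on low counts, 247 with at least 10 counts in every library, 240 in a fit of all 16 libraries of 9 weeks and 219 above 1 on the log2 scale. They became 1209 with DESeq2, 436 with no term for fraction, 0 with PNA+ and Cd49b+ libraries summed and 0 with limma's duplicateCorrelation, and 22 to 1090 without 1 library or without both libraries of 1 number. Summing leaves fewer samples, and the causes of the other shifts were not tested. With the library number as a replicate block there were 490 calls in luminal progenitors, 1 in PNA+ cells and 0 in Cd49b+ cells. Same-numbered libraries deviated together within a genotype (r = 0.85 and 0.67) but not across genotypes (r = -0.219 to -0.0869), so the samples share only a number there. A block that crosses the numbers between genotypes, chosen after seeing the data, gave 1208, 54 and 10. In PNA+ cells the call became 10 with no filter, 375 with DESeq2, 7 with the 4 libraries alone and 0 to 1 without 1 library. In Cd49b+ cells 0 became 8 with no filter and 101 with DESeq2. The difference between fractions stayed at 0 calls under every alternative run, with 640 genes at an unadjusted p under 0.05 under a block within genotype. In mature luminal cells DESeq2 called 110 and leaving out 1 library 0 to 4, in basal cells 129 and 0 to 4, and in 6-week luminal cells 562 and 51 to 3118, with 627 under no filter.

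Of 68 named genes, 60 were called with 8 libraries. All 60 lost the call under summing, and all 60 under duplicateCorrelation. Signs reversed for 3 genes that were not called: Plagl1 (0.028 under duplicateCorrelation), Stk36 and Rplp1, which without 1 library or number ranged from -0.070 to 0.22 (Stk36, reversed values -0.044, -0.059, -0.070 and -0.019) and from -0.31 to 0.74 (Rplp1, reversed values -0.13, -0.01, -0.20, -0.03 and -0.31). If a number marks 1 rat, each genotype has 2 independent samples. The effect of read depth was not tested.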
